A study of Mus musculus with 51 samples.

Results

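Of the 48658 H3K4me3 peaks that the authors listed for mouse embryos at 24h, 11569 (23.8%) lay far from any protein-coding gene. A peak was taken when it was more than 10 kb from the transcription start site (TSS) of every protein-coding gene, outside every protein-coding gene body, more than 2 kb from the TSS of every lincRNA (long intergenic noncoding RNA), and free of overlap with an H3K27me3 peak. Genes, biotypes and positions were those of the authors' 5 RNA tables together, with 20027 coding and 3701 lincRNA genes on the mouse build mm10. A further 2173 peaks met the distance rules but overlapped H3K27me3 and were left out. The rule used position and H3K27me3 overlap, and used neither H3K4me3 level nor RNA level. A gene absent from all 5 RNA tables could not exclude a peak, however. Those tables list different numbers of genes, from 13718 at 24h to 29039 at 18h, so the choice of peaks was not wholly free of the RNA data.

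The study asks how loss of the nucleolar long noncoding RNA LoNA acts on chromatin and transcription in the early embryo. The H3K4me3 groups were LoNA knockout (KO) and control embryos at 24h, and acetylated nucleophosmin (AcNPM1) was profiled in KO embryos treated with a p300 inhibitor, in KO embryos without it and in control embryos, all at 24h. RNA came from LoNA KO and control embryos at 18h, 20h, 22h and 24h, and from LoNA knockdown (KD) and control 2C-like mESC, a stem cell state that shares transcripts with the 2-cell embryo. All samples were of strain C57BL/6, and the labels say neither how the KO was made nor which inhibitor or dose was used.

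H3K4me3 is a histone mark laid down by SET1 and MLL methyltransferases, and it is best known from the promoters of active genes. Away from coding promoters it is found at the starts of noncoding RNAs, at transfer RNA (tRNA) genes read by RNA polymerase III, and more weakly at enhancers. In mouse oocytes and zygotes the mark also forms broad domains outside promoters, which are removed around the time the embryonic genome is activated. Nucleophosmin (NPM1) is an abundant histone chaperone of the nucleolus.

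Intergenic peaks cover starts of long noncoding RNAs (lncRNAs) that RefSeq annotates, and the start windows of 6 are shown. They were taken for their level or ratio, or after their values were seen, and they differ widely in CpG content. Each runs from 250 bases before to 50 bases after the start. They are RefSeq sequences of build GRCm38.p6, read 5′ to 3′ on the strand of the gene, with each CpG in capitals. The first 3 belong to the strongest lncRNA starts among the intergenic peaks by control level, namely Gm40987 (chr13:65990947-65991246, minus strand), Gm35089 (chr5:109866571-109866870, minus) and 2810410L24Rik (chr11:120189807-120190106, minus). Chaserr (chr7:73558346-73558645, minus), the lncRNA upstream of the chromatin remodeller gene Chd2, was added after its values were seen. It is known for restraining Chd2. Gm38791 (chr6:37714405-37714704, plus) and Gm31276 (chr13:113735901-113736200, plus) had the highest and the lowest ratio of KO over control among such peaks.
Gm40987: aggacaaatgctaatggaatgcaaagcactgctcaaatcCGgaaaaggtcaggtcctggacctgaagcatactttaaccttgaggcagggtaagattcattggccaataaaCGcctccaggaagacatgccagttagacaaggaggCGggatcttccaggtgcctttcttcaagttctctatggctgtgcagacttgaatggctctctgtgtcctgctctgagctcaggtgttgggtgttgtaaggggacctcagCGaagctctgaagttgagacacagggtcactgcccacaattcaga
Gm35089: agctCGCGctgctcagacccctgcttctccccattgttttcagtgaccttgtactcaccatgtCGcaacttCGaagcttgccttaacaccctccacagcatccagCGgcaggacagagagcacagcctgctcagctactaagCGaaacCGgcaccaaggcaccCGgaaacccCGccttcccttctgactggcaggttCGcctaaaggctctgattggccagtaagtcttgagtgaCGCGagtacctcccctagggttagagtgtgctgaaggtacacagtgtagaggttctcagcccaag
2810410L24Rik: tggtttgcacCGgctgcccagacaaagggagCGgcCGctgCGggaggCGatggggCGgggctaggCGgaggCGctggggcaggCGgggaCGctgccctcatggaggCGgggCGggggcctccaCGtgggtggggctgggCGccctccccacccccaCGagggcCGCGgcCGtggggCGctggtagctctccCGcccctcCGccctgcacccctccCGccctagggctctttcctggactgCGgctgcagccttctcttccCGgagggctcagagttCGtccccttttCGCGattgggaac
Chaserr: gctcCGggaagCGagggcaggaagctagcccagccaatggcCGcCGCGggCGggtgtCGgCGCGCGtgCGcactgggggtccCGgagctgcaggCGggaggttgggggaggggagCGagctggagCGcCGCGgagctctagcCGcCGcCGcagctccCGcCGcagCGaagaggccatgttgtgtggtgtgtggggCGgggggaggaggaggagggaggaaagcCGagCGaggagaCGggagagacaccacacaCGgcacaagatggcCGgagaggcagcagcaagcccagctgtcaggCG
Gm38791: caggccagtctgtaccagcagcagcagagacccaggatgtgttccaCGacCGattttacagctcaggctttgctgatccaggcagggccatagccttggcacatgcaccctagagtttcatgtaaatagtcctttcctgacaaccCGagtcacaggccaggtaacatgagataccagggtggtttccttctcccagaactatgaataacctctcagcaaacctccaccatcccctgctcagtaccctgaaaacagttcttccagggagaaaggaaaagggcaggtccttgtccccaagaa
Gm31276: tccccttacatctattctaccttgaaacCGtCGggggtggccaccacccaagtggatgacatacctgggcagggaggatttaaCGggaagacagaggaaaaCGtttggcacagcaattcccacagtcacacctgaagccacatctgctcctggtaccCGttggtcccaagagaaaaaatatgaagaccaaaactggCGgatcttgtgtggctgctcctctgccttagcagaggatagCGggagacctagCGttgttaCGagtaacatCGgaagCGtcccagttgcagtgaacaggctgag

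MicroRNA genes were near some of the peaks. RefSeq places 30 hairpins within 2 kb of 29 intergenic peaks, and 9 of these hairpins overlap one. The mature forms from 4 overlapping hairpins are shown with the seed, bases 2 to 8, in capitals, followed by a pair from a cluster on chromosome X that share a seed.
mmu-let-7i-5p: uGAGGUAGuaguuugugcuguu
mmu-miR-148a-3p: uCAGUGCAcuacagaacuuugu
mmu-miR-125b-5p: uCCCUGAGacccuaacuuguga
mmu-miR-129-2-3p: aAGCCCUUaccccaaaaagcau
mmu-miR-106a-5p: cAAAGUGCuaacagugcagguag
mmu-miR-20b-5p: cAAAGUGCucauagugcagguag

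Each chromatin condition is 1 column of reads, also for AcNPM1, where the labels list 3 samples a group, so no test between conditions was possible and the intervals given are 95% intervals that cover counting error only. The H3K4me3 columns held 49648616 reads for KO and 66601350 for control, with the column initials read as KO and control from the header's ratio, and these totals set the RPM values (reads-per-million, taken over the total reads). The RNA tables held 12077497 to 18286944 counts per library at 18h to 22h and 5852761 to 9244870 per column at 24h. Within a group, log2 CPM (counts-per-million) of the 24h libraries correlated at 0.58 to 0.63, against 0.912 to 0.973 at 18h to 22h. The 4 columns of a group at 24h formed near-identical pairs (0.995 to 0.998) and were summed to 2 libraries. The summed CPM of 6 oocyte-derived markers was 5240 to 10100 in KO and 5290 to 9520 in control libraries at 18h to 22h. The 6 markers of early embryonic genome activation, among them Zscan4d and Zfp352, summed to 108 to 904 in KO and 86.4 to 754 in control libraries at those times. In 2C-like mESC the same 6 markers summed to only 2.53 to 2.76 CPM with KD and 5.77 to 6.25 CPM in control. Of the 6 markers of cumulus and granulosa cells at 22h, Ptx3 and Amh were not listed, and Cyp19a1 was the highest at 57.6 to 74.3 CPM in KO and 46 to 101 CPM in control libraries. Has2, Inhba and Foxl2 were at most 1.26, 0.833 and 0.0593 CPM in KO libraries, and at most 2.59, 0.461 and 0 CPM in control libraries. One KO library at 22h stood apart in genes of ovarian follicle cells that are outside this list and were found after their values were seen. Hsd3b1 and Cyp11a1, enzymes of steroid synthesis, had at least 96.0 CPM in that library, at most 0.451 CPM in the other 2 KO libraries and at most 1.42 CPM in control libraries. At 24h the oocyte-derived sum was 6280 to 8680 in KO and 3630 to 4320 in control libraries. Its largest member was Oosp1, at 4660 to 6560 CPM in KO and 1870 to 2990 CPM in control libraries. Bmp15 and Gdf9 were also higher in KO without overlap, while the groups overlapped for Zp3, H1foo and Nlrp5. The markers of genome activation summed to 217 to 222 in KO and 146 to 772 in control libraries, with Duxf3 not listed. The 3 blood markers summed to 0.135 to 126 in KO and 21.8 to 40.5 in control libraries, with Ptprc not listed. The part of these markers in the 24h results was not tested. No gene of the tables is named LoNA, so the knockout was not checked under that name.

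The intergenic peaks were narrow and weak beside promoter peaks. Peaks within 2 kb of a coding TSS and without H3K27me3 overlap are given as those at coding starts. The median width of the intergenic peaks was 692 bp, against 1126 bp at coding starts. The median H3K4me3 level of the intergenic peaks was 2.88 RPM in KO and 3.17 RPM in control, and the corresponding values at coding starts were 11.7 RPM in KO and 12.8 RPM in control. Per kb of peak the intergenic level was 4.22 RPM in KO and 4.58 RPM in control, and the level at coding starts was 10.5 RPM in KO and 11.3 RPM in control. Peaks inside coding gene bodies, with medians of 4.57 RPM per kb in KO and 5.03 RPM per kb in control, lay closest to the intergenic ones. Together the intergenic peaks took 4.65% of all KO reads and 5.1% of all control reads.

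**Figure D1:**
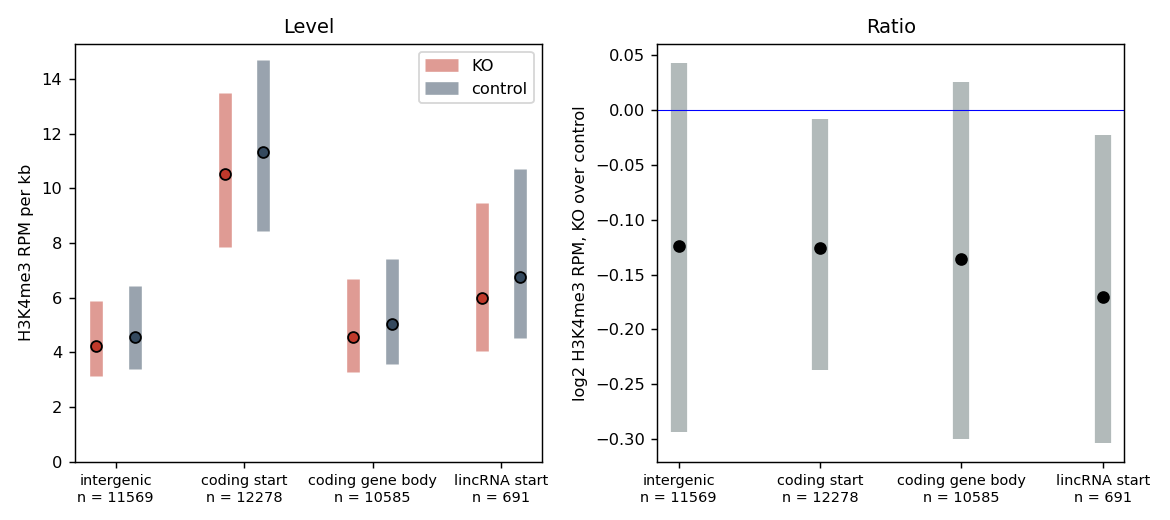
Left, H3K4me3 level in RPM per kb of peak, with KO beside control, for 4 classes of peaks. Right, the log2 ratio of KO over control RPM. Points are medians and bars span the quartiles over peaks. Intergenic peaks have the lowest level of the 4 classes and a median ratio of -0.12.

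The mark was slightly lower in KO than in control, by a similar amount at intergenic peaks and over all peaks. The median log2 ratio of KO over control was -0.12 at intergenic peaks and -0.13 over all H3K4me3 peaks, at coding starts it was also -0.13, at gene-body peaks it was -0.14, and at lincRNA starts -0.17. Of the 11569 intergenic peaks, 3524 (30.5%) had the higher RPM in KO, against 26.8% of all H3K4me3 peaks and 23.6% of those at coding starts. Their summed reads were 2307490 in KO and 3395900 in control, a log2 ratio of -0.13 after scaling to total reads (95% interval -0.14 to -0.13). The share of reads inside all peaks was itself 39.3% in KO and 42.2% in control, a log2 ratio of -0.106. Scaled to reads in peaks the intergenic median was -0.02, so the size of the difference rests on the scaling.

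Single intergenic peaks departed little from this common shift. A 2-fold difference was reached by 3 intergenic peaks that were higher and 13 that were lower in KO, against 0.0103% and 0.0658% of all peaks. All 16 had intervals that excluded the all-peak median. They were picked as the extremes of 11569 peaks, and the intervals are not adjusted for that, so this gives no support for a difference. They were mostly weak: 15 of them were among intergenic peaks with at most 296 reads over both conditions. Intergenic peaks made up 23.8% of all peaks and held 3 of the 5 that were higher and 13 of the 32 that were lower. Past 1.5-fold there were 85 higher and 493 lower in KO, against 0.555% and 2.81% of all peaks. Over 5 equal bins of peaks ranked by reads, the SD of the log2 ratio was 0.332 in the lowest bin (91 to 198 reads) and 0.177 in the highest, and the median was -0.06 in the lowest and -0.14 in the highest.

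**Figure D2:**
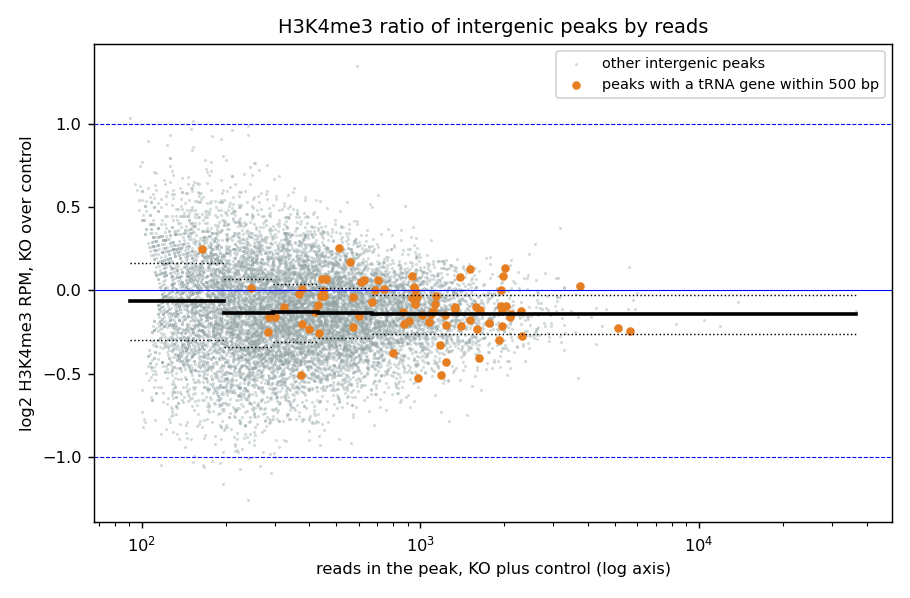
Each grey point is an intergenic peak, with its reads in KO plus control on a log axis and its log2 ratio of KO over control RPM. Black lines are the median and dotted lines the quartiles within 5 equal bins of peaks ranked by reads, blue dashed lines mark 2-fold, and orange points are peaks within 500 bp of a tRNA gene. The spread narrows as reads rise, and no tRNA peak reaches 2-fold.

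The intergenic peak with the highest ratio was chr12:22623122-22623634, with 387 reads in KO and 204 in control, a log2 ratio of 1.35 (95% interval 1.10 to 1.60). Its RPM was 7.79 in KO and 3.06 in control, and RefSeq places the coding gene Gm40864 there, while the nearest coding TSS of the authors' tables was over 1 Mb away. The next highest were small, with 55 reads in KO and 36 in control 179 kb from Arhgef26, a guanine exchange factor gene (log2 1.04), and 92 reads in KO and 61 in control 52.1 kb from Klhl8 (log2 1.02). The lowest ratio was at chr1:151560401-151560828, 10.4 kb from Fam129a, with 57 reads in KO and 183 in control (log2 -1.26, interval -1.71 to -0.82). Among the other low ones was a peak 12.9 kb from Zp2, which encodes a zona pellucida protein of the oocyte coat, with 59 reads in KO and 166 in control (log2 -1.07, interval -1.52 to -0.63).

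The 3 peaks just inside the distance limit, at 10003 to 10004 bp from the start of Klrb1c, Gm10842 and Fam69b, had log2 ratios of -0.19, -0.15 and -0.21. The 3 peaks just outside it, at 9978 to 9993 bp, had ratios of -0.40, -0.07 and 0.16.

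The strongest intergenic peaks were of several kinds. The first by control level was chr12:3109872-3110121, only 250 bp wide, with 299.5 RPM in KO and 326.7 RPM in control. It is 1 of 4 intergenic peaks above 100 RPM per kb in control, and RefSeq lists no gene in it. The next, chr10:27818747-27825895 199 kb from Lama2, a laminin gene, was also the widest at 7149 bp, with 115 RPM in KO and 121 RPM in control. A pair of peaks on chromosome 11 lay in Pisd-ps1, a transcribed pseudogene, with 93.4 and 65.5 RPM in KO and 108 and 75.2 RPM in control. The transcribed pseudogene 2610005L07Rik on chromosome 8 carried a peak of 2023 bp with 83.4 RPM in KO and 94.3 RPM in control. A peak 15.8 kb from Nanos3, a germ cell gene, had 48.5 RPM in KO and 52.4 RPM in control. The start of Gm37352, listed as neither coding nor lincRNA, was only 186 bp from that peak. The log2 ratios of all the peaks named in this paragraph lay between -0.21 and -0.07.

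Genes read by RNA polymerase III were near some of the stronger intergenic peaks. A RefSeq tRNA gene lay within 500 bp of 78 intergenic peaks (0.674%), against 0.286% of the other H3K4me3 peaks without H3K27me3. These 78 peaks had a median of 8.22 RPM in KO and 8.45 RPM in control, while intergenic peaks without a tRNA gene had 2.88 RPM in KO and 3.15 RPM in control. Of 430 RefSeq tRNA genes, 217 lay near some H3K4me3 peak and 101 near an intergenic one. Chromosome 13, which holds the main histone and tRNA gene cluster, had 34 of the 78 peaks and 41 of the 101 genes. The strongest was chr13:23401136-23402911, beside tRNA genes for alanine and valine, with 43.8 RPM in KO and 51.9 RPM in control. On chromosome 1 a peak of 1164 bp that holds tRNA genes for glycine and aspartate, with genes for glutamate and leucine within 500 bp of it, had 32.6 RPM in KO and 31.9 RPM in control. The median log2 ratio at tRNA peaks was -0.12, as at the peaks without one.

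Long noncoding RNA starts of RefSeq that the authors' tables do not list as lincRNA made up another group. The window from 250 bases before to 50 bases after such a start overlapped 308 intergenic peaks (2.66%). These had 4.24 RPM in KO and 5.11 RPM in control at the median, a log2 ratio of -0.17, against -0.12 for the remaining intergenic peaks and -0.17 at the lincRNA starts that the rule left out. The gene body of a RefSeq lncRNA was touched by 2004 peaks (17.3%). RefSeq also disagreed with the rule in places: 444 peaks (3.84%) overlapped a RefSeq protein-coding gene body and 56 (0.484%) a RefSeq coding start. The 2 annotations differ in positions, in biotypes and in which genes they list. One of these peaks, chr5:109866317-109868015, spans the RefSeq start of AB010352, a symbol that the RNA tables do not hold. It had 25.9 RPM in KO and 29.9 RPM in control. None of the annotations searched was found at 8582 peaks (74.2%), whose medians were 2.82 RPM in KO and 3.09 RPM in control.

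**Figure D3:**
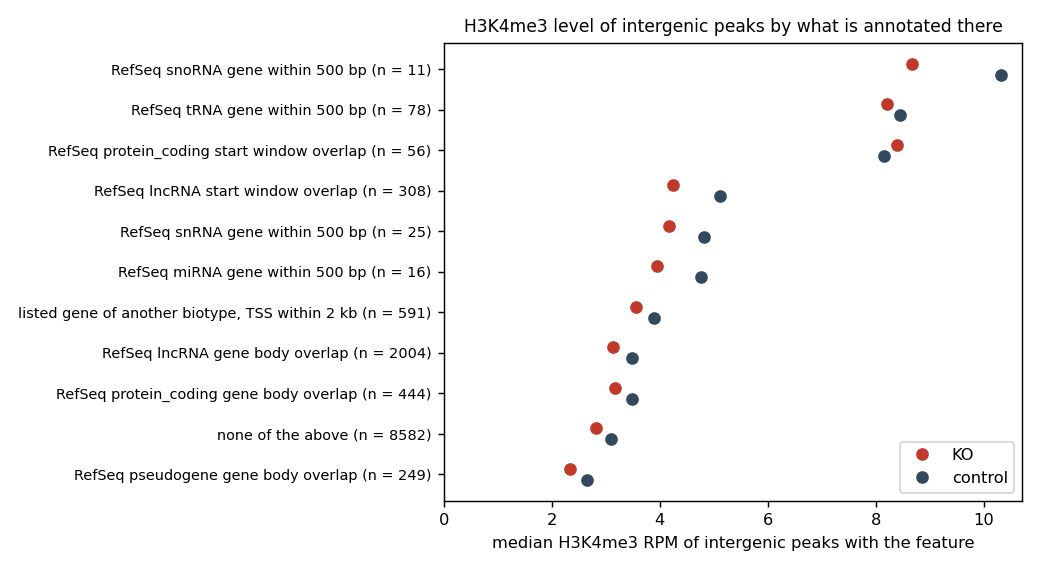
Median H3K4me3 RPM of the intergenic peaks that carry each annotation, with KO above control in each row and the number of peaks in parentheses. Peaks at snoRNA genes, tRNA genes and RefSeq coding starts have the highest medians, and peaks with no annotation are near 3 RPM.

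Among the start windows printed above, those of Gm40987 and Gm35089 held 4 and 12 CpG, and those of 2810410L24Rik and Chaserr held 27 and 30. Since 3 of these 4 were taken for their high control level and Chaserr was chosen after its values were seen, their levels are a description and do not bear on CpG content. The Gm40987 peak had 24.3 RPM in KO and 30.1 RPM in control, the 2810410L24Rik peak 26.5 RPM in KO and 28.6 RPM in control, and the Chaserr peak 19.5 RPM in KO and 22 RPM in control. The Gm31276 peak, with 11 CpG, had 4.73 RPM in KO and 7.79 RPM in control (log2 -0.72, interval -0.95 to -0.49). The Gm38791 peak, with 3 CpG, had 69 reads in KO and 68 in control, and its interval of -0.06 to 0.95 includes no difference.

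Over all 309 lncRNA starts in intergenic peaks the median was 7 CpG per window, against 18 at the 1844 lncRNA starts in other H3K4me3 peaks and 3 at the 7380 in no H3K4me3 peak. Motifs were searched on both strands. The GC box GGGCGG, which itself holds a CpG, was in 34.0% of the intergenic set, 54.5% of the starts in other H3K4me3 peaks, 7.02% of those in no H3K4me3 peak and 36.6% of all 27025 RefSeq windows. The letters AAGGTCA, the half-site of the nuclear receptor Nr5a2, were in 9.39% of the intergenic set and in 3.42%, 6.07% and 4.61% of the other sets in the same order. TATAAA was in 10.4% of the intergenic set and in 5.31%, 18.3% and 13.9% of the others. The bicoid-class homeodomain letters TAATCC were in 8.09% of the intergenic set and in 4.66%, 9.27% and 7.15% of the others. TATAAA and TAATCC thus had shares between those of lncRNA starts in other peaks and in no peak. The long CTCF motif was in none of the 309 windows and in 0.0111% of all windows, so it could not be compared at this length.

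Peaks at the microRNAs shown above varied in level. The peak over the miR-148a hairpin had 17.04 RPM in KO and 17.1 RPM in control (log2 -0.01, interval -0.14 to 0.12). The peak at let-7i, a miRNA of the let-7 family that restrains pluripotency and growth genes, was weaker, with 3.14 RPM in KO and 4.10 RPM in control (log2 -0.38, interval -0.68 to -0.09). At miR-125b-1 it was 2.01 RPM in KO and 1.95 RPM in control, and at miR-129-2 it was 5.46 RPM in KO and 4.91 RPM in control. miR-106a and miR-20b, relatives of the proliferative miR-17 family, lie 1323 and 1698 bases from a peak with 9.33 RPM in KO and 9.82 RPM in control. The sensory cluster of miR-183, miR-96 and miR-182 has a peak between its members with 14.8 RPM in KO and 14.4 RPM in control. Among the peaks named so far here the interval excluded no difference only at let-7i, and that interval included the all-peak median of -0.13. A second intergenic peak 1928 bases from the let-7i hairpin had 1.83 RPM in KO and 1.53 RPM in control (log2 0.26, interval -0.16 to 0.68).

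With distance from coding genes the peaks changed gradually. The numbers in bands of 10 to 20, 20 to 50, 50 to 100, 100 to 500 and over 500 kb were 2075, 3157, 2140, 3196 and 1001. The median log2 ratio was -0.15, -0.13, -0.13, -0.11 and -0.08 in the same order. The median level in KO was 3.02 RPM in the nearest band and 2.68 RPM in the farthest, and in control it was 3.33 and 2.96 RPM. By chromosome, intergenic peaks were 16.0% of all H3K4me3 peaks on chromosome 7 and 17.4% on chromosome 11, against 39.5% on X and 79.6% on Y, where 117 of 147 peaks met the rule. Most stood alone: 79.0% had no other intergenic peak within 5 kb. The longest run with gaps of at most 20 kb, chr2:30686697-30785393, held 16 peaks that summed to 143.5 RPM in KO and 155.5 RPM in control.

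AcNPM1 peaks overlapped few intergenic peaks. Of the AcNPM1 peaks themselves, 78.2% in the table of KO and control and 72.2% in the table with the inhibitor overlapped H3K27me3, which the rule leaves out. In the table called for KO and control, 344 of the 11569 (2.97%) overlapped an AcNPM1 peak, against 2.48% of the other H3K4me3 peaks without H3K27me3. In the table called for KO with p300 inhibitor and KO, 593 (5.13%) did, against 4.03%. The intergenic peaks that were left out for overlap with H3K27me3 had shares of 68.2% and 78.4% in the same order of tables. In the inhibitor table the overlap was 3.28% in the band nearest to coding genes and 9.39% beyond 500 kb, and it was also 1.77% in the bin with the fewest H3K4me3 reads and 12.3% in the bin with the most. Peaks that overlapped AcNPM1 in the KO and control table had a median H3K4me3 level of 5.70 RPM in KO, against 2.78 RPM in KO for those with AcNPM1 in neither table.

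**Figure D4:**
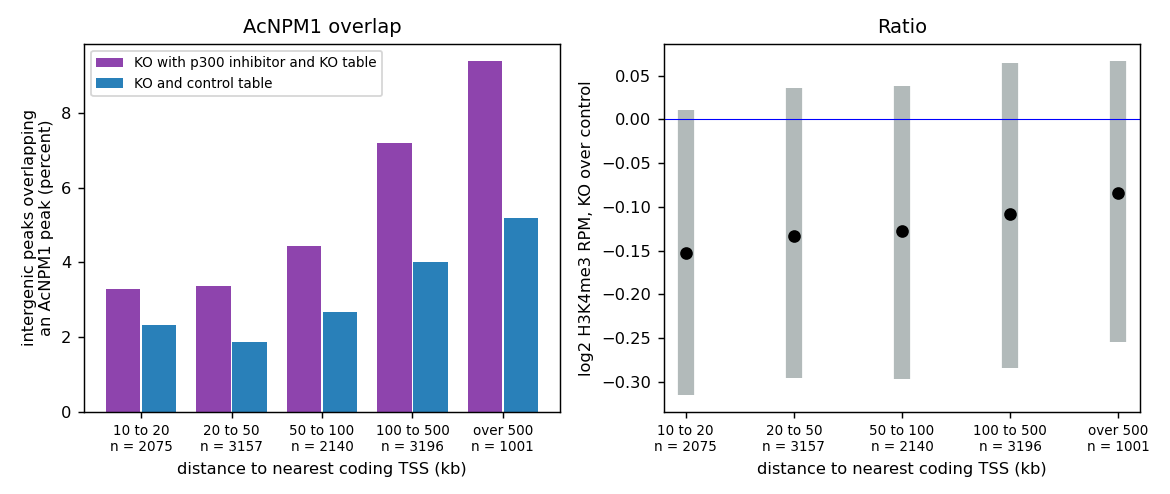
Left, percent of intergenic peaks that overlap an AcNPM1 peak, by distance to the nearest coding TSS, for the table of KO with p300 inhibitor and KO beside the table of KO and control. Right, the median and quartiles of the log2 H3K4me3 ratio of KO over control in the same bands. Overlap is highest beyond 500 kb in both tables, and the median ratio moves from -0.15 in the nearest band to -0.08 in the farthest.

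At intergenic H3K4me3 peaks the AcNPM1 ratios lay nearer to 0 than over the whole tables. The median log2 AcNPM1 ratio of KO over control was 0.01 at the 344 AcNPM1 peaks there, against 0.14 over all 9602, and 50.6% of them against 68.4% of all were higher in KO. With the inhibitor over KO the median was -0.02 at 595 AcNPM1 peaks, against -0.08 over all 11745. These peaks were also weaker, with medians of 1.54 RPM in KO and 1.56 RPM in control, against 4.56 RPM in KO and 4.08 RPM in control over the table. Past 2-fold, 9 of the 344 were higher and 1 was lower in KO, against 0.396% and 0.219% of the table. These 9 are of 38 in a table to which intergenic peaks gave 3.58% of the AcNPM1 peaks, and 2 of them are regions named below. With the inhibitor 3 were higher and 5 lower than in KO without it, against 0.128% and 0.4%. Both comparisons use the KO column, so they are not independent.

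The 5 intergenic regions with the most AcNPM1 were all under 450 bp wide. At chr12:3109872-3110121, the strongest H3K4me3 region above, AcNPM1 was 143.6 RPM in KO and 48.7 RPM in control (log2 1.56, interval 1.48 to 1.64), and 99.8 RPM with the inhibitor against 143.8 RPM in KO without it (log2 -0.53). The regions chr16:98107491-98107766 and chr1:195371727-195371970 were also highest in KO, with 78.2 and 65.4 RPM. They had 44.5 and 29.3 RPM in control, and 43.8 and 28.8 RPM under the inhibitor. The inhibitor value thus lay above control at the chr12 region and close to control at the chr16 and chr1 regions. The H3K4me3 log2 ratios of the chr16 and chr1 regions were near the common value, at -0.01 and -0.14. RefSeq lists no gene within 5 kb of these 3 regions. The fourth, chr8:123618554-123618923, has several ribosomal RNA genes of RefSeq within 5 kb, among them the 5S genes n-R5s146 and n-R5s149. It had 40.2 RPM of AcNPM1 in KO and 35.2 RPM in control, and 40.1 RPM with the inhibitor against 41.4 RPM in KO without it. The fifth, chr6:47677490-47677921, lay 82.1 kb from Ezh2, the methyltransferase subunit of PRC2. RefSeq lists the coding genes Gm36327, Gm40363, Gm40364 and Gm40365 within 5 kb of it. It had 31.7 RPM in KO and 26.6 RPM in control (log2 0.26, interval 0.14 to 0.37). With the inhibitor it had 28.1 RPM, against 31.7 RPM in KO without it (log2 -0.18).

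The 15 coding genes with the most intergenic peaks nearest to them are given here after their counts were seen. The stretch of genome over which a gene is the nearest one ran from 389 kb for Klf3 to 2520 kb for G6pd2, and the counts are not corrected for it. Enc1, an actin-binding protein gene, and Rybp, a subunit of the Polycomb complex PRC1, were each nearest to 24 peaks, Tbl1xr1 of the NCoR corepressor to 22, Med13l of Mediator to 21, and Jmjd1c, a lysine demethylase family gene, to 20. Zfp36l1, an RNA-binding protein gene, was nearest to 19, Jarid2, an accessory subunit of PRC2, to 18, and Mycn and Vrk1 to 17 each. Dad1, G6pd2, Klf3, Myc, Sall1 and Slc39a10 were nearest to 16 each. In all, 5106 coding genes were nearest to at least 1 intergenic peak, and 2612 of them to just 1. The median log2 ratio of the peaks was lowest at G6pd2 among the 15 genes, at -0.31, with 2 of its 16 peaks higher in KO. The 18 peaks near Jarid2 summed to 51.3 RPM in KO and 61.3 RPM in control, with a median log2 ratio of -0.26, and 3 of the 18 were higher in KO. The 16 peaks near Myc summed to 76.3 RPM in KO and 83.6 RPM in control.

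The RNA of these neighbours ranged from abundant to barely detected. Tbl1xr1 had 377, 414 and 403 CPM in KO libraries at 22h, against 376, 382 and 364 CPM in control libraries. Jarid2 had 104, 85.7 and 60.7 CPM in KO libraries at 20h, against 60.9, 36.3 and 40.6 CPM in control libraries, and the groups overlapped only just (log2 0.82, edgeR adjusted p = 0.998). Med13l had 62.7, 36.2 and 31.7 CPM in KO libraries at 22h, against 12.3, 28.1 and 13.9 CPM in control libraries, without overlap (log2 1.27, edgeR adjusted p = 1.0). Its highest value was in the KO library that held Hsd3b1 and Cyp11a1. Sall1 was at 0 in every KO library at 22h and at 0 to 0.634 CPM in control libraries. Myc had 2.07, 0 and 0.181 CPM in KO libraries at 18h, against 4.6, 3.77 and 3.23 CPM in control libraries (log2 -2.32, edgeR adjusted p = 1.0). In 2C-like mESC, which have 2 nearly identical columns a group and were not tested, Sall1 had 110 and 108 CPM with KD, against 260 and 262 CPM in control, and Myc had 145 and 150 CPM with KD, against 19.9 and 20.0 CPM in control.

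Genes near intergenic peaks were compared between KO and control embryos at each time, in fits over all genes. They were the 4211 coding genes with the nearest TSS within 100 kb of a peak and the 581 genes of other biotypes, mainly processed pseudogenes (225), with a TSS within 2 kb. No such gene passed an edgeR adjusted p of 0.05 at 18h, 20h, 22h or 24h. The background was 0% of tested genes higher and 0.00649% lower in KO at 18h, 0.00689% each way at 20h, 0% higher and 0.00656% lower at 22h, and 0% each way at 24h. At an unadjusted p of 0.05 edgeR had 10 of 132 tested other-biotype genes and 135 of 2725 coding genes at 18h, and 2 of 50 and 59 of 1450 at 24h. Those shares were 7.58% and 4.95% at 18h, against 5.14% of all genes, and 4% and 4.07% at 24h, against 5.16% of all genes. At 20h the counts were 4 of 119 and 101 of 2541 (3.36% and 3.97%), against 3.66% of all genes, and at 22h 1 of 112 and 105 of 2694 (0.893% and 3.9%), against 3.15% of all genes. DESeq2 called more genes. At 18h it had 6 coding neighbours higher and 7 lower in KO, and 2 other-biotype genes lower, against 0.162% higher and 0.253% lower among all genes. At 20h it had 1 coding neighbour higher and 3 lower, against 0.0551% and 0.0964%, and at 22h 0 near genes, against 0.0262% and 0.00656%. At 24h 27 coding neighbours were higher and 37 lower in KO of 1450 tested, against 2.09% and 3.45% of all genes. With no filter on low counts edgeR called 7 near genes at 22h. Prss35 and Sparc were 2 of them, with 44.9 and 49.5 CPM in the KO library that held Hsd3b1 and Cyp11a1, at most 2.83 CPM in the other 2 KO libraries and at most 3.06 CPM in control libraries. The part of that library in these calls was not tested. In whole embryos, fewer cells of a type and less RNA per cell cannot be told apart. Whether replicates are separate pools of embryos is not stated, so p-values speak only of the spread among these libraries.

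The median change of the near genes differed in sign between times. The median log2 ratio of the other-biotype genes was 0.28 at 18h (80 of 132 above 0), -0.19 at 20h, -0.01 at 22h and -0.11 at 24h, while over all genes it lay between -0.03 and 0.02. The median of the coding neighbours was -0.06 at 18h, -0.04 at 20h, 0.03 at 22h and 0.10 at 24h.

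Gm15446, on chromosome 5, came nearest to the threshold among the neighbours and was singled out for that reason. It is listed as coding in the RNA tables and as lncRNA in RefSeq. It had 79.9, 64.1 and 256 CPM in KO libraries at 18h, against 1.75, 4.49 and 1.39 CPM in control libraries (log2 5.71, edgeR adjusted p = 0.0567, DESeq2 adjusted p = 1.25e-20). At 20h it had 35.7, 33.2 and 46.6 CPM in KO libraries, against 0.42, 0.828 and 2.62 CPM in control libraries (log2 4.86, edgeR adjusted p = 0.111). The groups did not overlap at either time. At 22h KO libraries had 102, 166 and 168 CPM, and control libraries had 1.67, 0.774 and 149 CPM, so that 1 control library stood at the KO level. Without that library edgeR gave a log2 ratio of 6.9 and an adjusted p of 0.00249, against 1.0 with it. With all libraries and no filter on low counts its adjusted p at 22h was 0.000268 in edgeR. At 24h the libraries of each group had 369 and 0.656 CPM in KO and 131 and 89.9 CPM in control.

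Of the 4 intergenic H3K4me3 peaks nearest to Gm15446, 20.9 to 80.0 kb from its start, 3 were lower in KO at 24h. That is near the common share, since only 30.5% of all intergenic peaks were higher in KO. The peak at the AB010352 and Gm35089 starts had a log2 ratio of -0.21 (interval -0.31 to -0.11), which includes the all-peak median of -0.13. The pair farther out had 14.6 and 16.7 RPM in KO against 18.2 and 21.0 RPM in control (log2 -0.32 and -0.33). Their intervals, -0.45 to -0.19 and -0.46 to -0.21, excluded that median but cover counting error only. The closest was weak, with 72 reads in KO and 88 in control, and its interval of -0.34 to 0.6 includes no difference. The peak in Gm15446 itself, which is no intergenic peak, had 22.5 RPM in KO and 25.3 RPM in control.

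Among the noncoding genes at the peaks, those with the most RNA were processed pseudogenes and noncoding transcripts. Gm1821, a processed pseudogene, had 244, 154 and 260 CPM in KO libraries at 18h, against 172, 148 and 106 CPM in control libraries (log2 0.65, edgeR adjusted p = 0.969). At 24h it had 245 and 247 CPM in KO libraries, against 493 and 289 CPM in control libraries, and its log2 ratio was -0.61 at both 22h and 24h (edgeR adjusted p = 1.0). Reads of such pseudogenes may be shared with near-identical copies, so these levels are uncertain. BB557941, a processed transcript whose start lies in a peak with 8.22 RPM in KO and 9.10 RPM in control, had 89.5, 112 and 104 CPM in KO libraries at 22h, against 194, 116 and 134 CPM in control libraries (log2 -0.54, edgeR adjusted p = 1.0). At 24h the direction was the other way and again without overlap, with 205 and 211 CPM in KO libraries, against 57.4 and 139 CPM in control libraries (log2 1.11, edgeR adjusted p = 1.0). Platr14, a lncRNA that was named for its link to pluripotency, had 117 and 268 CPM in KO libraries at 24h, against 66.8 and 33.7 CPM in control libraries (log2 2.0, edgeR adjusted p = 1.0), while its groups overlapped at 18h, 20h and 22h.

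Chaserr, under its former symbol 1810026B05Rik, had 3.05, 1.91 and 0.0904 CPM in KO libraries at 18h, against 7.14, 7.07 and 7.16 CPM in control libraries (log2 -2.06, edgeR adjusted p = 0.969). At 24h it had 55.3 and 61.2 CPM in KO libraries, against 0 and 48.8 CPM in control libraries. At 20h and 22h the groups overlapped. 4930412C18Rik ranked among the 8 most abundant at 24h through a single control library of 229 CPM, and every other library at that time was at or below 0.127 CPM.

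**Figure D5:**
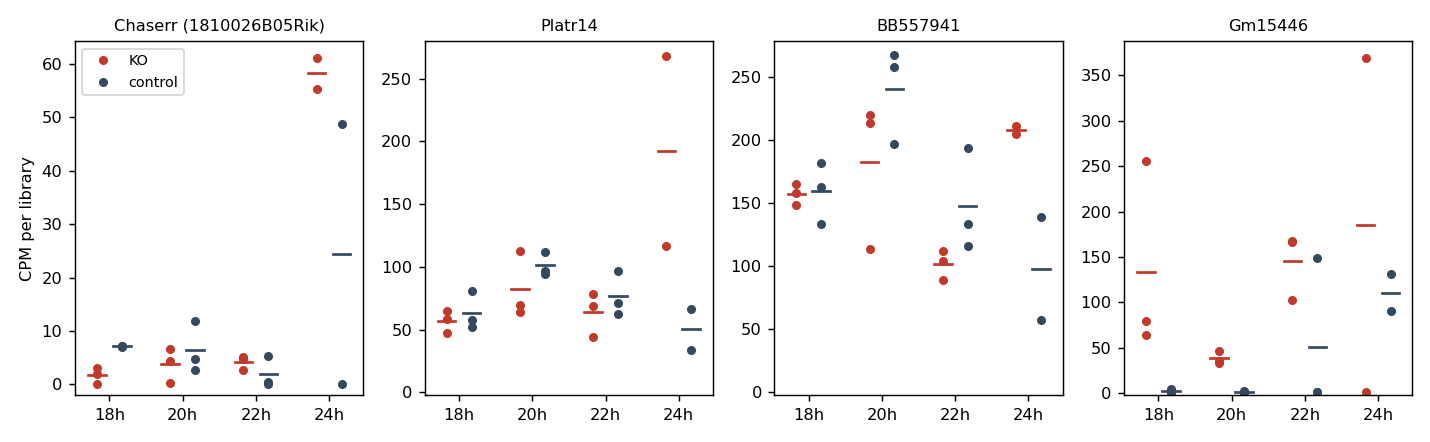
CPM of each library at 18h, 20h, 22h and 24h, with KO points left of control points and short lines at the group means, for 3 noncoding genes at intergenic peaks and for the coding neighbour Gm15446. Gm15446 is separated between KO and control at 18h and 20h and not at 22h or 24h, where its 2 KO libraries had 369 and 0.656 CPM.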

How the data were processed

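The peak tables give, per the file headers, read counts of both conditions for each region on mm10, the total reads of each condition, the RPM that the authors computed from them, and the authors' deposited log2 ratio. The total reads are a constant other quantity in the deposited tables. Per the labels' protocols chromatin libraries came from an in-situ tagmentation kit, and the submitters' processing notes give MACS2 2.1.1, Bowtie2 2.1.0 and bcl2fastq 2.2 for these, and HTSeq 0.6.0, HISAT2 2.1.0 and Bowtie2 2.2.3 for RNA. How replicates were pooled for peak calling is not given in the sources used here. The H3K4me3 columns carry initials, read as KO and control from the header's ratio and the table's title. RPM recomputed from reads differed by at most 5e-05. The deposited RNA tables hold raw counts per gene. Other deposited columns, such as the authors' fold ratio, p-value and mean signal, were not used.

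Regions were compared by overlap of at least 1 base. Intervals of a read ratio are exact conditional binomial. Named regions were the 8 with the highest control RPM, the 5 highest and 5 lowest ratios with at least 50 reads, the 5 widest, 3 on each side of the distance limit and the 5 with most AcNPM1; named genes were their nearest coding genes, the 8 noncoding genes with most RNA at 24h and the 8 at 18h to 22h, of which a part is printed. Sequences are from RefSeq, and 309 lncRNA windows matched; no genome was used. The members, lists and named genes were chosen with earlier results of these data known.

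Counts were fitted with edgeR 4.0.16 in R 4.3.3 (TMM, filterByExpr, quasi-likelihood test, Benjamini-Hochberg over all genes of a time). DESeq2 1.42.0 was an alternative. At 24h columns with a correlation above 0.99 were summed, which left 2 libraries a group. On simulated counts for all filtered genes of a time, with 200 genes changed by 4-fold, edgeR recovered 95.5% at 18h, 99.5% at 20h, 96.0% at 22h and 100.0% at 24h. It also made 9, 11, 7 and 10 false calls in the same order. The simulation gave every gene the same preset spread between libraries, which was not taken from the real libraries. At 24h the real libraries correlated at only 0.58 to 0.63 within a group. The recovery therefore does not give the power on the real data.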

Additional observations from a re-analysis of the deposited data

How the results depend on the processing

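The median log2 ratio of intergenic peaks, -0.1241, was -0.01863 when scaled to the reads in all peaks, 0.002591 when centred on the median of all peaks, -0.1125 for peaks more than 50 kb from a coding TSS and -0.1188 with H3K27me3 overlap allowed. The 16 peaks past 2-fold became 8 beyond 50 kb and 578 past 1.5-fold. The share overlapping AcNPM1 was 5.49% and 8.39% when an AcNPM1 peak within 5 kb counted. Every intergenic peak had at least 91 reads over both conditions, so a filter of 20 reads could not remove any. For peaks more than 2 kb from any listed TSS the median was -0.1246, and 15 peaks passed 2-fold. A stricter overlap gave AcNPM1 shares of 2.95% in the KO and control table and 5.07% in the inhibitor table, against 2.97% and 5.13%.

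The counts of genes past the threshold were 1, 2, 1 and 0 at 18h, 20h, 22h and 24h with edgeR. They were 64, 22, 5 and 411 with DESeq2 on the same filtered genes, and 72, 15, 33 and 3 without a filter on low counts. Leaving out 1 library gave 1 at 18h, 1 to 2 at 20h, 1 to 2 at 22h and 0 to 39 at 24h. For genes near intergenic peaks, 0 at each time with edgeR, DESeq2 gave 15, 4, 0 and 64, no filter gave 13, 4, 7 and 1, and leaving out 1 library gave 0 at 18h and 20h, 0 to 1 at 22h and 0 to 10 at 24h. The 10 at 24h arose without the second control library and 3 without the first. Taking the 24h columns as separate libraries gave 823 genes, of which 158 were near genes. RLE factors changed no count. The cause of these differences was not tested. No paired analysis was possible because the count columns carry no replicate number of the labels. Chromatin values have 1 column a condition, so only counting error is known for them.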
